A study of Mus musculus with 9 samples.

Results

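The genes described here encode 6 secreted fibroblast growth factors (Fgf3, Fgf4, Fgf5, Fgf8, Fgf15 and Fgf17) and the 4 FGF receptor tyrosine kinases (Fgfr1 to Fgfr4). They were taken as a named family, and the members were chosen with earlier results of these data known. Their probe sets are those that the platform annotation assigns to no other gene. All 10 were measured, out of 18193 genes, with 26 probe sets in all. Where a gene had several, the brightest on average over the 9 arrays gave its values and the others served as a check. RNA levels are log2 signals of Affymetrix mouse arrays, so a difference of 1 is 2-fold. There were 3 groups of 3 arrays, labelled as biological replicates. The first group was ESCs (embryonic stem cells, which stand for the naive pluripotent state) grown in N2B27 with 1000 U/ml LIF plus 250 ng/ml of Wnt3a. The second was EpiSCs (epiblast stem cells, the primed state of the implanted epiblast) given IWP2, a blocker of Porcupine, the enzyme that Wnt proteins need for secretion. The third was EpiSCs given vehicle. Both EpiSC groups grew in N2B27 with 20 ng/ml of Activin A plus 12 ng/ml of bFGF, and all cells are labelled C57BL/6. The sources used here give neither the dose and duration of IWP2 nor how many lines the cultures came from. The labels' shared treatment text also names a later Wnt3a addition, which the labels of these EpiSC groups do not carry.

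FGF ligands bind their receptors together with heparan sulphate chains on the cell surface, and the receptors signal through adaptor proteins and Ras to the kinase ERK. In the early mouse embryo, FGF4 from the inner cell mass drives ERK signalling that moves cells out of the naive state, FGF5 marks the epiblast after implantation, and FGF8 acts in the primitive streak at gastrulation. The bFGF of the EpiSC medium is the FGF2 protein, so both EpiSC groups received an FGF signal from outside whatever ligands they made.

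Promoter sequences were found for 6 of the 10 genes in the RefSeq-derived table of the assembly GRCm38.p6. Those of Fgf4 and Fgf5 are shown because the RNA of these 2 ligands moved in opposite directions in both comparisons with vehicle EpiSCs, and that of Fgf3 because the gene is the closest FGF neighbour of Fgf4. Each is the 250 bases before the annotated start, on the plus strand: Fgf4 at chr7:144861136-144861385, Fgf5 at chr5:98253934-98254183 and Fgf3 at chr7:144838362-144838611. Capitals mark every match, on either strand, to the TATA-like motif TATATA in the first sequence, to the GC box motif GGGCGG in the first and second, and to the Tcf/Lef core motif CTTTGA in the third. A match on the minus strand is printed as its reverse complement.
Fgf4: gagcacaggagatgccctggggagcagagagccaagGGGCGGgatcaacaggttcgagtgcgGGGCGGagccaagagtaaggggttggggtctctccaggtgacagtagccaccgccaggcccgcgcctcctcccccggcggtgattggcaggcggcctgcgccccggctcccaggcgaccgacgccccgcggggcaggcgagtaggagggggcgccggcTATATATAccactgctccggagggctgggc
Fgf5: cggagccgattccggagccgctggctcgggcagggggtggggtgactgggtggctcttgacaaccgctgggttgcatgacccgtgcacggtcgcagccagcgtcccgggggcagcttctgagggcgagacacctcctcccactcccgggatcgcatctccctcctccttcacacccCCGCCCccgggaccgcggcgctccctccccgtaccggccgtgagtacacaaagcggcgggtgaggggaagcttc
Fgf3: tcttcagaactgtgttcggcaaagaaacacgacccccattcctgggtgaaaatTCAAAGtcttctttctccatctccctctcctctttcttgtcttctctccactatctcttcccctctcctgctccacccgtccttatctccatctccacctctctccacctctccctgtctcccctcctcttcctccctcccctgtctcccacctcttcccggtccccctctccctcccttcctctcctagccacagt

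The Fgf4 promoter held 2 GGGCGG boxes, the core bound by Sp factors, and 2 overlapping TATATA matches, a TATA-like run, that began 30 and 28 bases before the start. Over all 32851 promoters in the table, 32.7% held GGGCGG and 5.25% held TATATA in the same 250 bases. The Fgf5 promoter held 1 GGGCGG box, and a TATAAA lay 34 bases after its annotated start, outside the window shown. TATAAA was in 12.4% of all promoters in the 250 bases before the start, and in none of the 6 genes there. GGGCGG also occurred before the starts of Fgfr3 and Fgfr4. CTTTGA, the core recognised by Tcf/Lef factors of the Wnt pathway, occurred in 13.8% of all promoters and, of the promoters found for this family, in that of Fgf3. The octamer ATTTGCAT, read by Oct factors, was in none of the 6 genes' windows and in 1.6% of all. The best known Oct4 and Sox2 element of Fgf4 lies beyond the coding region and is outside these windows. G and C made up 71.2% of the Fgf4 window, 70.8% of the Fgf5 window and 55.2% of the Fgf3 window, against a median of 52.4% over all promoters.

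The groups stood well apart over all probe sets. Arrays of 1 group correlated at 0.997 to 0.998, IWP2 with vehicle arrays at 0.982 to 0.985, and ESC with EpiSC arrays at 0.927 to 0.931. Against either EpiSC group, ESCs had at least 2-fold more of all 10 naive pluripotency markers examined. Of all genes, 6.87% were called at least 2-fold higher against vehicle EpiSCs and 7.87% against IWP2 EpiSCs. Zfp42 (Rex1) was at 12.98 in ESCs, 2.47 in IWP2 EpiSCs and 2.54 in vehicle EpiSCs. Averaged over 8 primed epiblast markers, the ESC arrays gave 7.38 to 7.41, the IWP2 arrays 10.47 to 10.57 and the vehicle arrays 10.44 to 10.53. Members moved both ways with IWP2 (4 higher, such as Sox3 at 1.37, and 2 lower, such as Cd24a at -1.96). Of the naive markers 1 was higher and 4 lower with IWP2. Of all genes, 16.6% were higher and 16.8% lower with IWP2. The Y-linked gene Eif2s3y averaged 2.29 in ESCs, 9.82 in IWP2 EpiSCs and 9.83 in vehicle EpiSCs. Xist, the noncoding RNA of X inactivation, gave 9.15, 9.01 and 9.06 on ESC arrays, 6.38, 6.82 and 6.99 with IWP2, and 5.13, 5.35 and 4.94 with vehicle, so it differed between the EpiSC groups as well, without overlap. The part of Xist in the IWP2 results was not tested. In the comparisons with ESCs, the difference in Y-linked RNA, cell state and medium cannot be told apart. The 3' minus 5' signal of the actin control spanned 0.64 to 0.66 in ESCs, 0.64 to 0.69 with IWP2 and 0.53 to 0.59 with vehicle, and its part in the results below was not tested. In these bulk samples, fewer cells of a type and less RNA per cell cannot be told apart.

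With IWP2, 4 of the 6 ligands changed by at least 2-fold, and none of the 4 receptors did. Fgf4 and Fgf15 rose, and Fgf5 and Fgf8 fell. Over the 10 genes, 7 passed limma's test (adjusted p below 0.05), with 5 higher and 2 lower in IWP2 EpiSCs, while 33.5% of all genes passed (16.6% higher and 16.8% lower). A called change of at least 2-fold was found in 4 of the 10 genes, 2 in each direction, and in 3.72% of all genes (0.901% higher and 2.81% lower). The IWP2 and vehicle arrays did not overlap for 8 of the 10 genes, and for 47.0% of all genes. The median difference was 0.23 over the 10 genes and 0.03 over all genes. Because the members were chosen with earlier results of these data known, their counts beside the shares of all genes, here and below, are a description. No test was made on the family as a set.

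**Figure D1:**
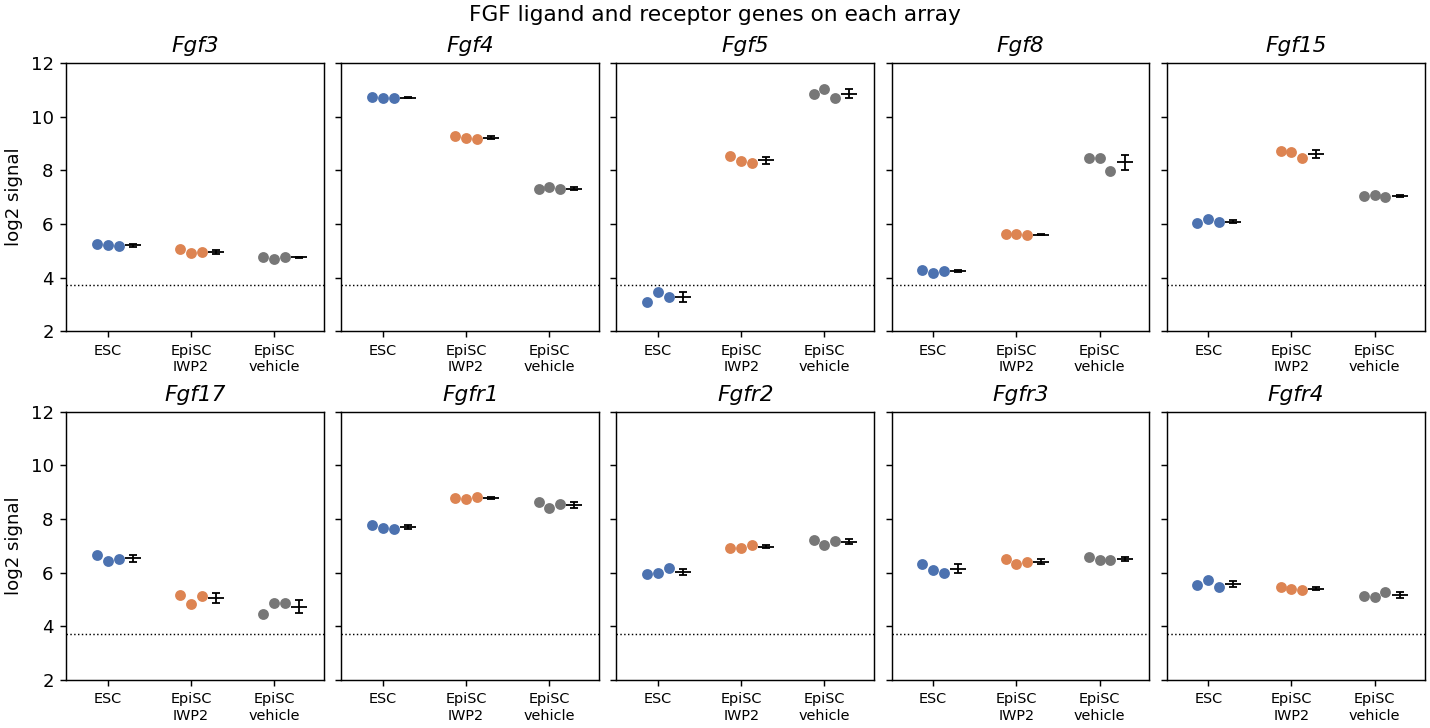
Log2 signal of each FGF ligand and receptor gene on the 3 arrays of ESCs (blue), IWP2-treated EpiSCs (orange) and vehicle EpiSCs (grey), with the group mean ± SD (n = 3) in black and the lower quartile of all values (3.72) dotted. Fgf4 steps down and Fgf5 and Fgf8 step up across the groups drawn, Fgf15 is highest with IWP2, and the group means of any 1 receptor span at most 1.11.

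Fgf4, the ligand of the inner cell mass, gave 10.73, 10.71 and 10.68 on the ESC arrays, 9.28, 9.19 and 9.18 on the IWP2 arrays, and 7.30, 7.38 and 7.29 on the vehicle arrays. The 3 groups did not overlap, and IWP2 EpiSCs lay between ESCs and vehicle EpiSCs. Fgf4 rose 3.71-fold with IWP2 (log2 difference 1.89 ± 0.054, SE, limma adjusted p = 9.63e-09). Against vehicle EpiSCs, ESCs had 10.4-fold more (3.38 ± 0.054, SE, adjusted p = 1.83e-11) and against IWP2 EpiSCs 2.81-fold more (1.49 ± 0.054, SE, adjusted p = 4.72e-09). As the mean of its 4 probe sets the IWP2 difference was 1.26, still called. With the probe set made from the RefSeq transcript of Fgf4 it was 0.54, below 2-fold.

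Fgf5, the ligand that marks the primed epiblast, went the other way. Its signal was 3.09, 3.47 and 3.27 on the ESC arrays, 8.53, 8.36 and 8.26 on the IWP2 arrays, and 10.84, 11.05 and 10.70 on the vehicle arrays. Fgf5 therefore fell 5.57-fold with IWP2 (log2 difference -2.48 ± 0.12, SE, limma adjusted p = 3.14e-07), and ESCs lay a further 34.4-fold below IWP2 EpiSCs (-5.11 ± 0.12, SE, adjusted p = 2.15e-10). The groups did not overlap. The ESC values lie below the lower quartile of all values, 3.72, and the size of their differences depended on the probe set and on the treatment of low signals. The other probe set of Fgf5, which averaged 5.15 in ESCs, gave -4.12 for ESC minus vehicle and -1.85 for ESC minus IWP2. The ESC minus vehicle difference of -7.58 (adjusted p = 1.57e-11) became -5.85 as the mean of both probe sets and -5.5 when 32 was added to the linear signals before taking logs. The ESC minus IWP2 difference became -3.48 and -3.13 under the same changes, still called.

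Fgf8, the streak ligand that gastrulating cells need to migrate, also fell with IWP2. Its signal was 4.27, 4.18 and 4.25 on the ESC arrays, 5.61, 5.63 and 5.57 on the IWP2 arrays, and 8.46, 8.46 and 7.99 on the vehicle arrays. Vehicle replicate 3 was the lowest of its group, but stayed well above the highest IWP2 array. Fgf8 fell 6.51-fold with IWP2 (log2 difference -2.70 ± 0.113, SE, limma adjusted p = 1.13e-07), and by 2.86 on the log2 scale without that array. Against IWP2 EpiSCs, ESCs were lower by a further 2.58-fold (-1.37 ± 0.113, SE, adjusted p = 2.22e-06), a difference close to the floor that was -0.66, still called, with an offset of 32. Against vehicle EpiSCs the ESC difference was -4.07 (adjusted p = 7.12e-10), and -2.78 with the offset.

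Fgf15 was the ligand whose level did not run in 1 direction across ESCs, IWP2 EpiSCs and vehicle EpiSCs. It is the mouse counterpart of human FGF19, an intestinal hormone that restrains bile acid synthesis in the adult liver, and is made in the neural tube of the embryo. It gave 6.05, 6.17 and 6.07 on the ESC arrays, 8.72, 8.69 and 8.45 on the IWP2 arrays, and 7.05, 7.07 and 7.02 on the vehicle arrays. Fgf15 rose 2.98-fold with IWP2 (log2 difference 1.58 ± 0.077, SE, limma adjusted p = 3.32e-07). In ESCs it was lower than in IWP2 EpiSCs by 5.76-fold (-2.53 ± 0.077, SE, adjusted p = 1.29e-09) and lower than in vehicle EpiSCs by 1.93-fold (-0.95 ± 0.077, SE, adjusted p = 2.06e-06).

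Fgf17, a close relative of Fgf8 that acts in the midbrain and cerebellum, differed from Fgf8 in its pattern. Its signal was 6.66, 6.42 and 6.50 on the ESC arrays, 5.17, 4.84 and 5.13 on the IWP2 arrays, and 4.47, 4.86 and 4.87 on the vehicle arrays. ESCs were above both EpiSC groups without overlap, and the EpiSC groups overlapped each other. In ESCs Fgf17 exceeded its vehicle EpiSC level 3.48-fold (log2 difference 1.8 ± 0.126, SE, limma adjusted p = 6.8e-07), and its IWP2 EpiSC level by 2.8-fold (adjusted p = 2.68e-06). With an offset of 32 these log2 differences were 1.08 and 0.94, both still called, the second below 2-fold. IWP2 and vehicle EpiSCs were not called different (0.31, 95% interval 0.03 to 0.59 before adjustment, adjusted p = 0.084), though without IWP2 replicate 2 the difference was 0.42 and was called (adjusted p = 0.0394).

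Fgf3, a ligand of inner ear and tail development, differed by little between the groups. Its signal was 5.27, 5.21 and 5.16 on the ESC arrays, 5.05, 4.91 and 4.94 on the IWP2 arrays, and 4.78, 4.71 and 4.75 on the vehicle arrays. The 3 groups did not overlap, but the steps were small. The IWP2 minus vehicle difference was 0.22 ± 0.059 (SE, limma adjusted p = 0.0163), found with 1 of its 3 probe sets, and it was not called without IWP2 replicate 1 (0.18, adjusted p = 0.055). It was also not called with cyclic loess (0.17, adjusted p = 0.0536), with a trended and robust variance model (adjusted p = 0.088) or as the mean of the probe sets (0.10, adjusted p = 0.265). ESCs were 1.38-fold higher than vehicle EpiSCs (0.47, adjusted p = 6.08e-05), with a median of 0.12 over all genes in that comparison, and exceeded IWP2 EpiSCs by 0.25 (adjusted p = 0.00455).

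The 4 receptor genes differed less between IWP2 and vehicle EpiSCs than Fgf4, Fgf5, Fgf8 and Fgf15, with log2 differences from -0.17 to 0.26. Fgfr1, the main FGF receptor of the epiblast and streak, gave 7.78, 7.65 and 7.64 on the ESC arrays, 8.77, 8.75 and 8.83 on the IWP2 arrays, and 8.64, 8.39 and 8.54 on the vehicle arrays. It was 2.14-fold lower in ESCs than in IWP2 EpiSCs (-1.10 ± 0.073, SE, limma adjusted p = 4.43e-07) and 1.78-fold lower than in vehicle EpiSCs (-0.83, adjusted p = 3.94e-06). ESCs lay below both EpiSC groups on every array. Its rise with IWP2 was small (0.26 ± 0.073, SE, adjusted p = 0.0199). The rise was not called without IWP2 replicate 3 (adjusted p = 0.0676), without vehicle replicate 2 (adjusted p = 0.0641), as the mean of its probe sets (0.15, adjusted p = 0.085), or with a probe set other than those ending in _x_at or _s_at (0.09, adjusted p = 0.499).

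Fgfr2, a receptor prominent in primitive endoderm and trophoblast, was lower in ESCs too. Its signal was 5.93, 6.00 and 6.15 on the ESC arrays, 6.93, 6.93 and 7.02 on the IWP2 arrays, and 7.20, 7.03 and 7.18 on the vehicle arrays. The ESC minus vehicle difference was -1.11 ± 0.075 (SE, limma adjusted p = 5e-07) and the ESC minus IWP2 difference -0.94 ± 0.075 (SE, adjusted p = 1.69e-06). IWP2 and vehicle arrays did not overlap, but the difference of -0.17 was not called (95% interval -0.34 to -0.01 before adjustment, adjusted p = 0.103).

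Fgfr3, a brake on growth in cartilage, gave 6.33, 6.09 and 5.99 on the ESC arrays, 6.52, 6.31 and 6.41 on the IWP2 arrays, and 6.59, 6.47 and 6.45 on the vehicle arrays. ESC and IWP2 arrays overlapped. The ESC minus vehicle difference of -0.37 ± 0.093 (SE, limma adjusted p = 0.0059) rested on the probe set used, since the other probe set of Fgfr3 gave 0.49 (adjusted p = 0.00418 among all probe sets) and the mean of both 0.06. The ESC minus IWP2 difference of -0.28 (adjusted p = 0.0262) was not called when any of 4 arrays was left out. It was -0.22 (adjusted p = 0.093) without IWP2 replicate 1, -0.28 (0.0607) without IWP2 replicate 3, -0.25 (0.074) without ESC replicate 2 and -0.20 (0.0969) without ESC replicate 3. No direction is given for Fgfr3 because its probe sets disagree. The IWP2 minus vehicle difference was -0.09 (95% interval -0.30 to 0.12 before adjustment, adjusted p = 0.49).

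Fgfr4, in the adult the liver receptor for FGF15 together with beta-Klotho, gave 5.55, 5.71 and 5.46 on the ESC arrays, 5.45, 5.40 and 5.35 on the IWP2 arrays, and 5.13, 5.08 and 5.28 on the vehicle arrays. ESCs exceeded vehicle EpiSCs by 0.41 ± 0.079 (SE, limma adjusted p = 0.00113). This probe set ends in _x_at, the suffix for probes that can also bind other transcripts. Without such probe sets the difference was 0.10 and not called, while the probe set made from the RefSeq transcript of Fgfr4, at 4.29, 4.35 and 3.98 in ESCs and 3.22, 3.28 and 3.30 in vehicle EpiSCs, gave 0.94 (adjusted p = 4.79e-05 among all probe sets), a size that is not exact because the vehicle values lie below the lower quartile of 3.72. The IWP2 minus vehicle difference of 0.24 (adjusted p = 0.043) lost its call without any 1 of 6 arrays (adjusted p = 0.057 to 0.135; all 3 IWP2 arrays, vehicle replicates 1 and 2, and ESC replicate 1) and with the replicate number as a block (adjusted p = 0.0784). Tested among all probe sets, none of the 5 of Fgfr4 was called for IWP2 minus vehicle (limma adjusted p = 0.0521 for the one used). ESCs and IWP2 EpiSCs were not called different (0.17, adjusted p = 0.0795), but were without ESC replicate 3 (0.23, adjusted p = 0.0407).

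**Figure D2:**
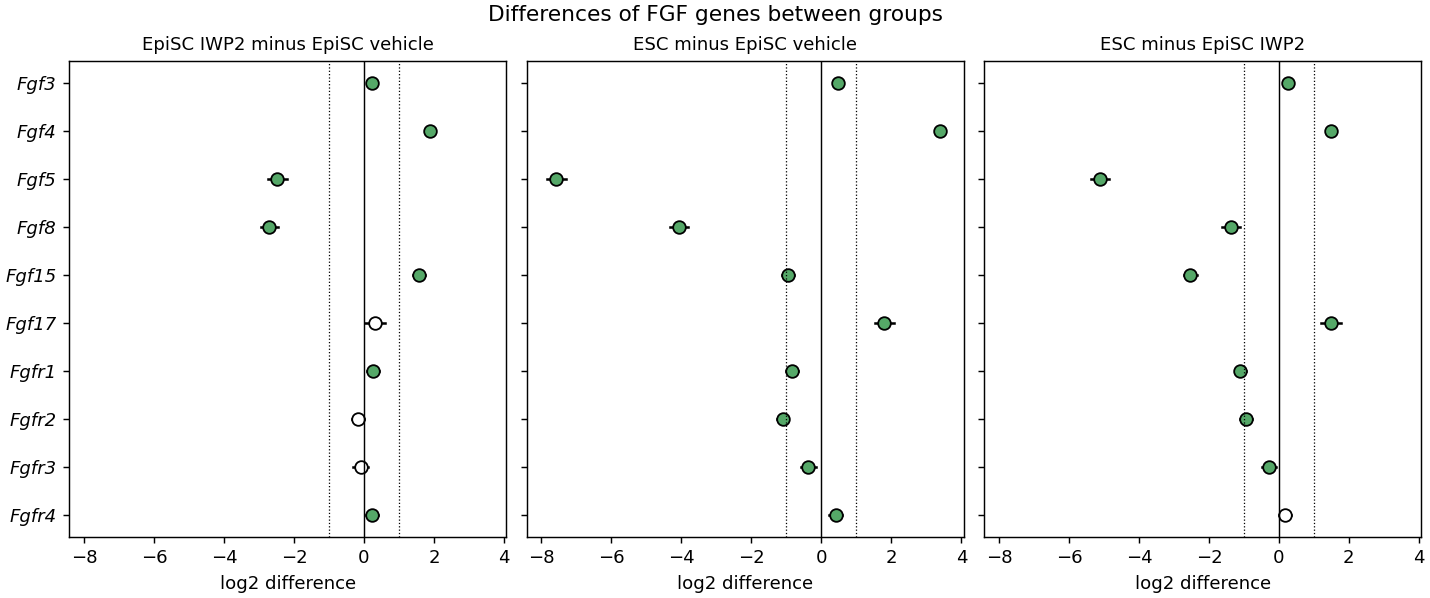
Log2 differences of the 10 FGF genes between groups, with 95% intervals from the limma fit as lines, green points for an adjusted p under 0.05, and dotted lines at 2-fold. Fgf4 and Fgf15 lie to the right and Fgf5 and Fgf8 to the left for IWP2 minus vehicle, and Fgf5 reaches -7.58 for ESC minus vehicle.

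Between ESCs and vehicle EpiSCs all 10 genes were called, 4 higher and 6 lower in ESCs (Fgfr3 among the lower by the probe set used), in a comparison where 66.6% of all genes were called (38.7% higher and 27.9% lower). A called difference of at least 2-fold was found in 5 of them (Fgf4 and Fgf17 higher, Fgf5, Fgf8 and Fgfr2 lower), against 16.5% of all genes (6.87% higher and 9.63% lower). No gene of the 10 overlapped between these groups, against 71.0% of all genes without overlap. Between ESCs and IWP2 EpiSCs 9 of the 10 were called, 3 higher and 6 lower (Fgfr3 again by the probe set used, its other set giving 0.49), against 62.1% of all genes (35.2% higher and 26.9% lower). Of these, 6 differed by at least 2-fold, 2 higher and 4 lower, against 17.3% of all genes (7.87% higher and 9.40% lower), and 9 of the 10 did not overlap, against 67.1%. The median over the 10 genes was -0.60 for ESC minus vehicle and -0.61 for ESC minus IWP2, and over all genes 0.12 and 0.10. These comparisons share their ESC arrays, and the comparisons with vehicle share the vehicle arrays.

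The probe sets of a gene served as a check on its direction. All 4 probe sets of Fgf4 were higher with IWP2, by 1.89, 1.90, 0.54 and 0.69 on the log2 scale, and all 4 were higher in ESCs than in vehicle EpiSCs, by 1.78 to 3.51. The set with 0.69 averaged 3.70 with IWP2 and 3.01 with vehicle, both below the lower quartile of 3.72, so its difference gives no exact size. The sets with 1.89, 1.90 and 0.69 share the same source sequence, so they are not separate checks. The set with 0.54 was made from the RefSeq transcript of Fgf4. It averaged 6.49 with IWP2 and 5.94 with vehicle, a difference below 2-fold. Both probe sets of Fgf5 were lower with IWP2 (-2.48 and -2.28), and both of Fgf17 were higher in ESCs than with vehicle, by 1.8 and 2.16, the second against a vehicle mean of 2.90, below that quartile, so that its size is not exact. All 3 of Fgfr1 were lower in ESCs against vehicle (-0.86 to -0.38). For Fgfr2 the 2 brighter probe sets fell in that comparison (-1.11 and -0.92) and the third, near the floor at 3.46 to 3.69 on vehicle arrays, was not called (0.17). Fgf8 and Fgf15 have 1 probe set each, so their values have no such check.

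**Figure D3:**
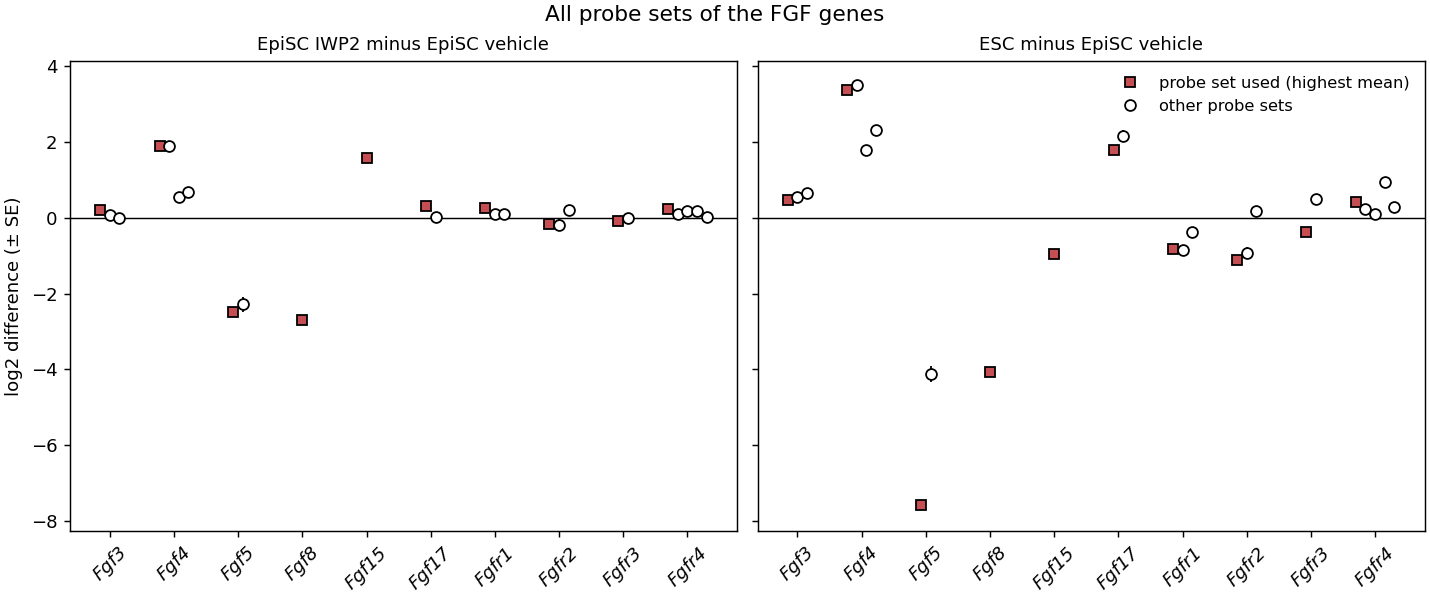
Log2 difference ± SE of every probe set of the 10 genes, with the one used as a red square and the others as open circles. The probe sets of Fgf4 and Fgf5 share their direction in both comparisons, and those of Fgfr3 split for ESC minus vehicle.

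Fgf3, Fgf4 and Fgf15 are neighbours on mouse chromosome 7 (GRCm38.p6), within 62.3 kb, and the cell cycle gene Ccnd1 (cyclin D1) follows them. Fgf3 lies at chr7:144838612-144843348, Fgf4 at chr7:144861386-144865245 and Fgf15 at chr7:144896532-144900953, where the table also places the lncRNA Gm26793, with no strand given. The 3 neighbouring FGF genes had unlike patterns: against vehicle EpiSCs, IWP2 EpiSCs differed by 0.22, 1.89 and 1.58 for Fgf3, Fgf4 and Fgf15, and ESCs by 0.47, 3.38 and -0.95. Ccnd1, named here after its values were seen, averaged 10.08 ± 0.030 in ESCs, 8.82 ± 0.085 in IWP2 EpiSCs and 9.42 ± 0.155 in vehicle EpiSCs (SD, n = 3). It fell by 0.60 with IWP2 (limma adjusted p = 0.000383), while Fgf4 and Fgf15 rose. LTO1, the other measured gene of the stretch, also named after its values were seen, was not called for IWP2 (0.03, adjusted p = 0.841). The other ligand genes lie on other chromosomes, Fgf5 at chr5:98254184-98277033, Fgf8 at chr19:45736491-45742941 and Fgf17 at chr14:70636203-70642268. Of the receptor genes, Fgfr2 is also on chromosome 7, far from the ligands, at chr7:130162451-130266808, with Fgfr1 at chr8:25518759-25575718, Fgfr3 at chr5:33721724-33737068 and Fgfr4 at chr13:55152818-55168759.

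For the 4 genes whose group means spanned at least 2 log2 units, the genes with the most similar profile were found by the root mean square difference over the 9 arrays, after each gene was centred on its own mean. Nearest to Fgf4 were Cpt1a, which admits fatty acids to mitochondria (0.124), Dcaf12l1 (0.391) and Xist (0.4). Cpt1a averaged 8.90 in ESCs, 7.51 in IWP2 EpiSCs and 5.6 in vehicle EpiSCs. Nearest to Fgf5 were the secreted kinase gene Pkdcc (0.525), the bHLH factor gene Olig1 (0.701) and the keratin gene Krt18 (0.748), all at larger distances than the genes nearest to the other 3. The distance was not scaled to the span of a gene, so its size is not comparable between the 4. Group means spanned 7.58 for Fgf5, 3.38 for Fgf4, 4.07 for Fgf8 and 2.53 for Fgf15. Nearest to Fgf8 were Fst, which encodes the Activin-binding protein follistatin (0.235), Cobll1 (0.257) and the matrix protein gene Frem2 (0.269). Fst averaged 5.07 in ESCs, 5.96 in IWP2 EpiSCs and 8.94 in vehicle EpiSCs. Nearest to Fgf15 were the cadherin gene Cdh22 (0.122), the lipoprotein lipase gene Lpl (0.177) and the adhesion gene Igsf11 (0.18), each with its highest group mean in IWP2 EpiSCs. With 3 groups, many genes can share a profile, and the likeness is a description.

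**Figure D4:**
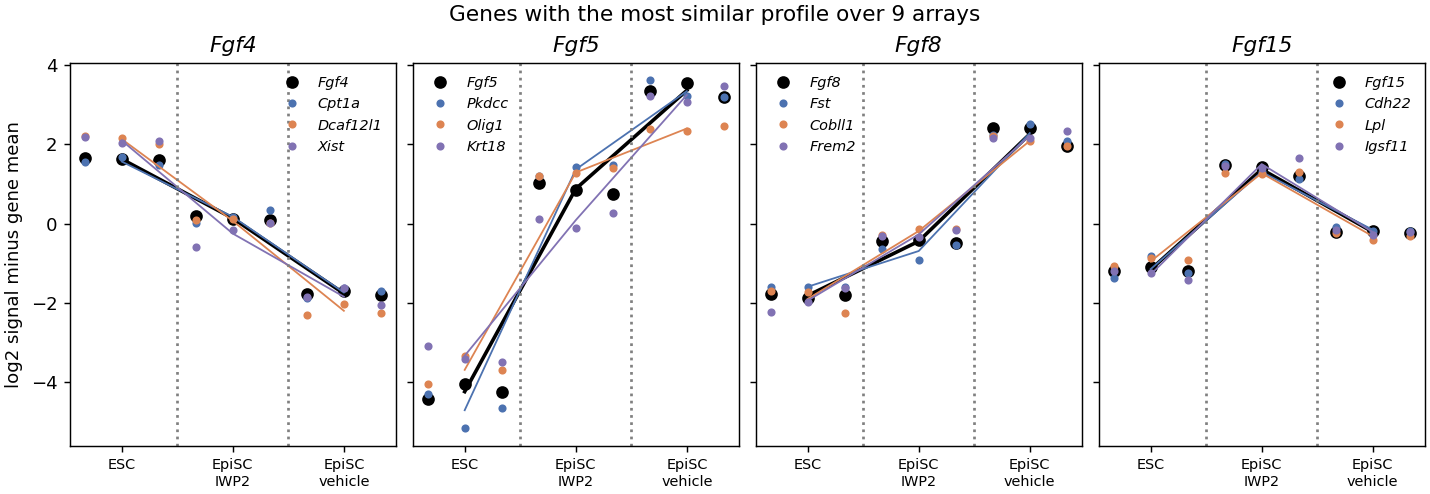
Centred log2 signal over the 9 arrays for Fgf4, Fgf5, Fgf8 and Fgf15 (black) and the 3 genes nearest to each (colours), with points for arrays and lines through group means. Cpt1a and Cdh22 lie almost on Fgf4 and Fgf15, at 0.124 and 0.122.

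Of the 16 other FGF genes, 3 rose, 1 fell and 12 were not called with IWP2 (16.6% of all genes rose and 16.8% fell), with a median of 0.06, and none changed by 2-fold. Fgf13 (0.70 ± 0.070, SE) and Fgf11 (0.93 ± 0.165, SE) were among those that rose. Both encode FGF homologous factors, which stay inside the cell and do not act as ligands. Fgf2, the gene of the factor added to the medium and named here for that reason, was below the lower quartile in all groups, at 2.71 in ESCs, 2.66 in IWP2 EpiSCs and 2.76 in vehicle EpiSCs. Between ESCs and vehicle EpiSCs 6 of the 16 were higher, 3 lower and 7 not called (66.6% of all genes were called), with Fgf1 at 0.59 and Fgf14, a further homologous factor, at -1.01. Between ESCs and IWP2 EpiSCs 4 were higher and 3 lower (62.1% of all genes were called), with Fgf18 at 0.51 and Fgf14 at -1.24.

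Co-receptors and FGF-binding proteins included several changes of at least 2-fold. Of 16, 5 rose and 5 fell with IWP2, 3 of the falls and 1 of the rises by at least 2-fold (of all genes, 33.5% were called, 2.81% fell and 0.901% rose by at least 2-fold). Flrt3, a membrane protein that binds FGF receptors, gave 5.12 ± 0.195 in ESCs, 5.44 ± 0.087 in IWP2 EpiSCs and 8.87 ± 0.061 in vehicle EpiSCs (SD, n = 3), and fell by 3.43 with IWP2 (limma adjusted p = 7.6e-09). Fgfbp3, whose product carries FGFs released from the matrix, moved like Fgf15 in sign, at 3.91 ± 0.094 in ESCs, 8.91 ± 0.070 in IWP2 EpiSCs and 7.13 ± 0.155 in vehicle EpiSCs, a rise of 1.78 with IWP2 (adjusted p = 3.17e-07). The glypican gene Gpc3 fell by 1.77 and the syndecan gene Sdc2 rose by 0.68. Between ESCs and vehicle EpiSCs 2 of the 16 were higher and 10 lower, 7 of them by at least 2-fold (38.7% of all genes were higher, 27.9% lower and 9.63% lower by at least 2-fold), with a median of -0.66 against 0.12 over all genes. Klb, the gene of beta-Klotho, was higher in ESCs (1.06, adjusted p = 6.92e-06). Between ESCs and IWP2 EpiSCs 4 were higher and 8 lower (35.2% of all genes were higher and 26.9% lower), with Fgfbp3 at -4.99 and Sdc2 at -4.02.

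Among the genes of heparan sulphate synthesis and editing, 12 of 14 were measured, of which 2 rose, 4 fell and 6 were not called with IWP2 (33.5% of all genes were called). Hs6st2, a 6-O-sulphotransferase, averaged 4.24 ± 0.068 in ESCs, 7.86 ± 0.144 in IWP2 EpiSCs and 8.92 ± 0.181 in vehicle EpiSCs (SD, n = 3), the largest ESC minus vehicle difference of the list's called members (-4.68, limma adjusted p = 1.32e-10). Sulf1, which removes 6-O-sulphate, fell by 0.97 with IWP2 and was lower in ESCs than in vehicle EpiSCs (-1.19). Hs6st1, which encodes an enzyme that adds 6-O-sulphate, was higher by 0.35 with IWP2 and by 0.31 in ESCs against vehicle EpiSCs. Between ESCs and vehicle EpiSCs 3 of the 12 were higher and 6 lower (66.6% of all genes were called), and the counts were the same against IWP2 EpiSCs (62.1% of all genes).

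In the relay from receptor to ERK, where 14 of 21 genes were measured, 6 rose and 2 fell with IWP2, none by 2-fold, with a median of 0.16 (16.6% of all genes rose and 16.8% fell). The adaptor gene Gab1 rose by 0.76 and Sos2 by 0.57, while Sos1, the other Ras exchange factor gene, fell by 0.99 and Map2k2 (MEK2) fell by 0.55. Gab1 was higher in ESCs than in vehicle EpiSCs by 2.56 ± 0.126 (SE, limma adjusted p = 4.74e-08), and Nras lower (-1.26 ± 0.055, SE, adjusted p = 1.89e-08), with 6 of the 14 genes higher and 7 lower (66.6% of all genes were called). Between ESCs and IWP2 EpiSCs 7 were higher and 7 lower (62.1% of all genes were called), with Sos1 at 1.25 and Sos2 at -2.29. Of 15 feedback and response genes 14 were measured, and 11 fell and 1 rose with IWP2 (median -0.73, 5 falls of at least 2-fold). Of all genes 16.8% fell, 2.81% by at least 2-fold, and 16.6% rose. Dusp4, which encodes an ERK phosphatase, fell by 3.1 (limma adjusted p = 4.06e-08), the immediate early gene Egr1 fell by 2.39, and the transcription factor gene Etv5 rose by 0.2 (adjusted p = 0.0415). Between ESCs and vehicle EpiSCs 8 were lower and 5 higher (median -0.51, with 66.6% of all genes called), and between ESCs and IWP2 EpiSCs 6 were lower and 7 higher (median 0.13, with 62.1% of all genes called). Spry4, an inhibitor of the pathway, was higher in ESCs than in IWP2 EpiSCs by 2.38, and the phosphatase gene Dusp6 was lower (-1.43).

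**Figure D5:**
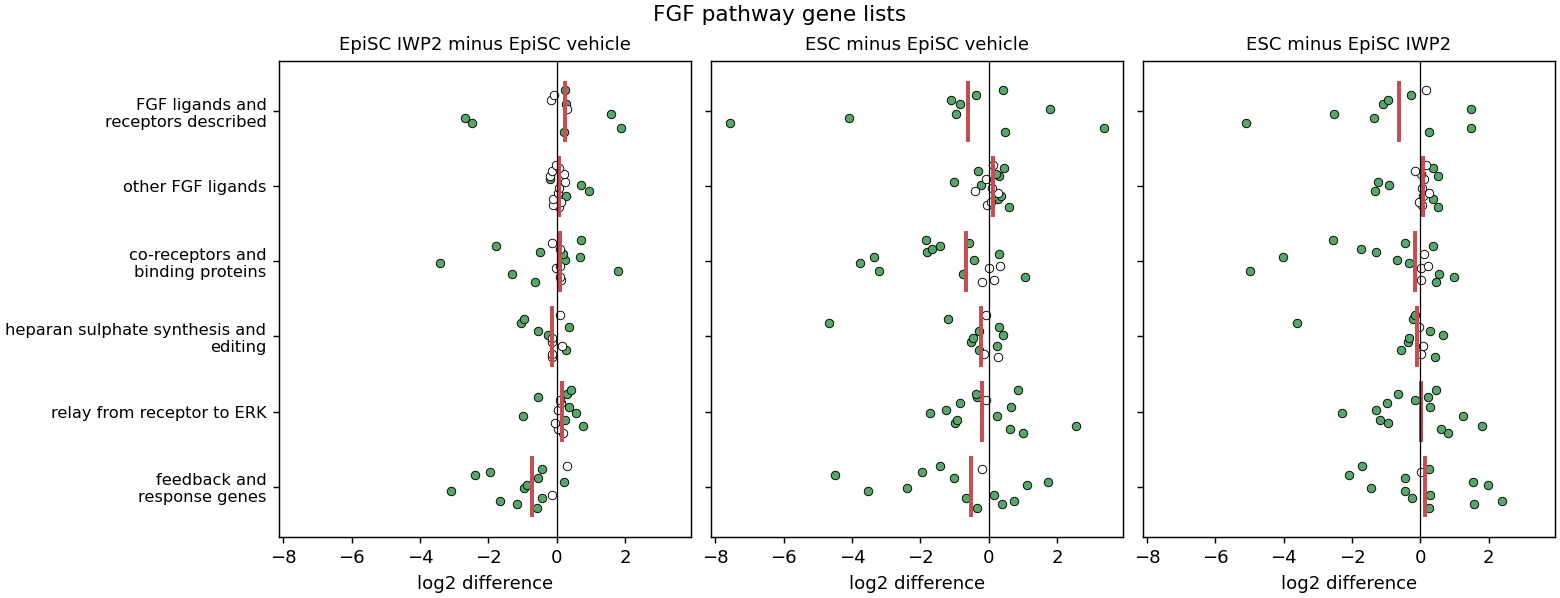
Log2 differences of the 10 FGF genes and of 5 lists of pathway genes in the 3 comparisons. Each point is a gene, green where the adjusted p is under 0.05, and red bars are list medians; the feedback and response list has its median at -0.73 for IWP2 minus vehicle and at 0.13 for ESC minus IWP2.

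All the lists of markers of differentiating and other cells had a lower mean level with IWP2 than with vehicle, and that of mesendoderm and endoderm fell most. Its mean level over 12 markers was 4.53 to 4.66 in ESCs, 4.30 to 4.38 with IWP2 and 8 to 8.24 with vehicle. With IWP2, 10 of the 12 fell and 2 were not called (list median -3.91), while 16.8% of all genes fell. Between ESCs and IWP2 EpiSCs 5 of the 12 were higher in ESCs and 7 were not called (median 0.22). Of all genes, 35.2% were higher in ESCs and 26.9% lower in that comparison. Gsc and Lhx1 were at or below the lower quartile of all values in ESCs and in IWP2 EpiSCs. Over 8 neural markers, relevant beside Fgf15, the mean was 5.87 to 6.01 in ESCs, 6.22 to 6.32 with IWP2 and 6.82 to 6.96 with vehicle. With IWP2, 3 were higher and 2 lower, while 16.6% of all genes were higher and 16.8% lower. The list median was 0.17, opposite in sign to the shift of the mean, and the 2 lower genes were Hesx1 (-5.45) and Six3 (-1.70), which act in the forebrain. Over 10 fibroblast and feeder markers the mean was 4.83 to 4.86 in ESCs, 5.16 to 5.34 with IWP2 and 5.61 to 5.89 with vehicle. With IWP2, 3 were higher and 4 lower (median -0.14), beside the same 16.6% and 16.8% of all genes. Lum and Pdgfra were at or below the lower quartile in ESCs and in IWP2 EpiSCs. The part of these markers in the results was not tested.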

How the data were processed

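The authors deposited log2 values, 1 per probe set and array. RMA and limma are the tools given in the submitters' processing notes, with no version. RMA subtracts background, equalises the arrays' distributions and summarises probes, so it cannot show a shift in the total RNA of a cell, and there are no detection calls or depths. The arrays' medians were 5.22 to 5.26. Array number limits the precision.

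Of the probe sets, 34945 had 1 gene symbol, 932 several, 9160 none and 64 were controls. The platform annotation named them, and 34741 of the 34945 had a gene identifier in the RefSeq table. Group means were fitted to all 18193 genes and 9 arrays with limma 3.58.1 in R 4.3.3 (lmFit, eBayes, 6 residual degrees of freedom, 9.58 after moderation), two-sided, with Benjamini-Hochberg adjustment over all genes and calls under 0.05. Intervals of differences are at 95%. All 10 family members are named; of each pathway list, up to 2 called genes with the smallest p per direction. The members and lists were chosen with earlier results of these data known. Alternatives covered probe sets, normalization, offset, filter, variance models, arrays fitted, a replicate block, thresholds and leaving out each array. Replicates are labelled biological; whether they came from separate lines is not stated.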

Additional observations from a re-analysis of the deposited data

How the results depend on the processing

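Over the 687 results of the 10 genes under the alternatives, 634 kept their direction and side of the threshold, 45 lost a call, 5 gained a call and 3 changed sign. Several alternatives, such as the stricter threshold, treat, the replicate block and the variance models, return the same log2 difference. Those could change a call but not a direction, so the 634 is no measure of how stable the directions are. The sign changes were Fgfr3 as the mean of its probe sets (0.06 for ESC minus vehicle and 0.11 for ESC minus IWP2) and Fgfr4 with _x_at and _s_at probe sets left out (-0.07 for ESC minus IWP2). Fgf4, Fgf5 and Fgf8 kept their calls and directions under every alternative run, and Fgf15 lost 1 call, for ESC minus vehicle (-0.95), when a minimum log2 difference of 1 was asked for. For IWP2 minus vehicle 7 of the 10 genes were called, and 4 at an adjusted p under 0.01, 4 as the mean of the probe sets and 4 with limma's treat at that minimum difference. Treat, which asks for more by construction, called 4 genes for ESC minus vehicle, against 10, and 5 for ESC minus IWP2, against 9. Leaving out 1 array gave 5 to 7 calls for IWP2 minus vehicle, 10 for ESC minus vehicle and 8 to 9 for ESC minus IWP2. Fgfr3 for ESC minus vehicle was not called with repeated quantile normalization (-0.22, adjusted p = 0.0566).

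Same-numbered replicates did not visibly deviate together (correlations -0.06 to 0.05 over genes), and the main fit did not pair the arrays. These correlations cannot show whether same-numbered cultures were grown or processed together. With the replicate block 6 genes were called for IWP2 minus vehicle, 10 for ESC minus vehicle and 9 for ESC minus IWP2, and Fgfr4 was the call that ended. Over all genes, IWP2 minus vehicle gave 6094 calls, and 3886 at an adjusted p under 0.01 and 345 with treat. With treat, ESC minus vehicle gave 2148 calls against 12123, and ESC minus IWP2 2279 against 11298. With every probe set tested the calls were 10168 for IWP2 minus vehicle, 21764 for ESC minus vehicle and 20510 for ESC minus IWP2. The low-signal filter left Fgf3 out.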
